A study of Mus musculus with 6 samples.

Results

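T cell receptor (TCR) V genes were followed in RNA-Seq libraries of retinal cells sorted to enrich retinal ganglion cells (RGCs), whose axons run in the optic nerve. The members are the annotated mouse genes of the alpha (*Trav*), beta (*Trbv*), gamma (*Trgv*) and delta (*Trdv*) V segments that reached 10 or more counts in at least 1 library. They were 64 of 170 V rows, and of 55573 rows in the count table. The 64 members were 42 *Trav*, 19 *Trbv*, 1 *Trgv* and 2 *Trdv* rows. Control mice received an adeno-associated virus carrying *GFP* (AAV2-*GFP*) in the vitreous, and the other group received AAV2-*Ezh2*. All animals were C57BL/6J and had an optic nerve crush (ONC) 2 weeks after the injection, with cells sorted 3 days after the ONC. Adult mice of both sexes aged 6 to 10 weeks were the default in the study's methods. The sort gate kept living cells positive for CD90.2 (encoded by *Thy1*), a surface protein of RGCs that mouse T cells also carry. There were 3 libraries per group, and nothing in the labels states whether they came from separate animals, so p values measure the spread between these libraries, which may be technical.

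A TCR chain is made in a developing T cell by joining 1 V segment to downstream segments and then to a constant gene. Each alpha-beta T cell thus carries 1 beta chain and mostly 1 alpha chain, and the V segments it uses are shared by all cells of its clone. The summed V level of a tissue therefore follows how many T cells it holds and how much receptor RNA they make, and in bulk libraries these cannot be told apart. The set of V genes in use describes the mixture of clones.

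Library totals ran from 30569933 to 35971192 counts, so that 3 counts, the limit that a count of 0 allows, corresponded to between 0.0834 and 0.0981 CPM (counts per 1000000 of the library total). These limits, and the binomial intervals given with shares, cover counting error only. *Ezh2* lay between 28.8 and 34.6 CPM in the GFP libraries and between 65.3 and 105 CPM in the Ezh2 libraries. Ezh2 replicate 3 stood apart. The study left 1 Ezh2 library out, inferred from its displayed columns to be this one, and the comparison between groups was therefore made on 5 libraries and repeated on all 6. Of 7 RGC markers, *Thy1* reached 87.2 to 114 CPM, *Rbpms* 16.4 to 20.8, *Nefl* 9.42 to 15.4, *Slc17a6* 4.09 to 8.17 and *Sncg* 1.73 to 3.36 CPM. *Pou4f1* and *Pou4f2*, defining RGC factors, were at 0.60 and 0.0932 CPM or less, with *Pou4f2* at 0 in 2 libraries and *Pou4f1* in 1. *Cd4*, a T cell coreceptor, reached 93.6 to 153 CPM.

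The V exon encodes nearly all of the V domain, so its letters decide whether a read can be placed on 1 V gene. The mouse *Trav* region holds neighbouring copies whose symbols carry a d or an n. The V exons of *Trav7-4*, *Trav7d-4* and *Trav7n-4* are shown because the last of them was counted in a single library. They are the whole 292-base V exons on the plus strand of chromosome 14 (GENCODE transcripts, build GRCm38), at chr14:53461447-53461738, chr14:52770101-52770392 and chr14:53091584-53091875, and the 6 capitals mark the positions at which the 3 copies differ.
Trav7-4: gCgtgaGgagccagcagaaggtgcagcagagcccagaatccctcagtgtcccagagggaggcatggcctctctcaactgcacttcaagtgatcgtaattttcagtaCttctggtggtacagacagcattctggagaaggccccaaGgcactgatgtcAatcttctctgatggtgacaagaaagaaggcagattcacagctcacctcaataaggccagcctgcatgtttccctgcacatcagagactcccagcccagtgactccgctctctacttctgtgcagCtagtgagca
Trav7d-4: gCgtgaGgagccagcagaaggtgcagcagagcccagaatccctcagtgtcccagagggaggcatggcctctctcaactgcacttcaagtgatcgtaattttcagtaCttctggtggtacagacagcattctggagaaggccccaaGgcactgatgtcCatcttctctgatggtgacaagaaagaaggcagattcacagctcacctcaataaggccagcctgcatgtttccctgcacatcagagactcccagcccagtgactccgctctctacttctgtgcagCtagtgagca
Trav7n-4: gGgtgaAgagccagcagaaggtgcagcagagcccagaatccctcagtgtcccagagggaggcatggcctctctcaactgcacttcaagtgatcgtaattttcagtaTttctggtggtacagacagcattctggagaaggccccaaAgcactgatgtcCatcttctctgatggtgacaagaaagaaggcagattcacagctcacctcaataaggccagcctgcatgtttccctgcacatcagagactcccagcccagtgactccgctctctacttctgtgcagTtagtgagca

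*Trav7-4* and *Trav7d-4* differed at 1 of 292 positions, whereas *Trav7n-4* differed from them at 6 and 5 positions. The ends of V exons are shown next for the beta genes that rose, for abundant genes and for alpha genes concentrated in 1 library, because the joined receptor sequence begins here. Each line holds the last 45 bases, with the in-frame TGT codon for the conserved cysteine in capitals. Such a TGT was found in the last 45 bases of 57 of the 63 members with an annotated V exon. All windows lie on the plus strand (GRCm38), in the order printed at chr6:41179004-41179048, chr6:41271837-41271881, chr6:41119320-41119364, chr6:41152186-41152230, chr14:53684133-53684177, chr14:53430333-53430377, chr14:53091831-53091875, chr14:53531269-53531313.
Trbv19: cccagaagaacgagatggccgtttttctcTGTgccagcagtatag
Trbv29: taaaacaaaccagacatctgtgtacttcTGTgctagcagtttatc
Trbv12-2: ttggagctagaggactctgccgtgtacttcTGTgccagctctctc
Trbv16: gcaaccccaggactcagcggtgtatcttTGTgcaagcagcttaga
Trav4-4-dv10: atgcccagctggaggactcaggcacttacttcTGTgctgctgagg
Trav6-3: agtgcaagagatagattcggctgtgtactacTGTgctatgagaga
Trav7n-4: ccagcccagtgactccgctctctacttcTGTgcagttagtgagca
Trav7-5: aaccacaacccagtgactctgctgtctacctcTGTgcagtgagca

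Between 10 and 14 bases follow the TGT in these 8 genes before the germline segment ends.

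Detection of alpha V genes followed how much of their V exon is shared with another V gene. Of 38 *Trav* genes with no 75-base stretch of their own, 0 reached 10 counts in a library, and 0 had a single count in any of the 6 libraries. Of 20 genes with some but under 50% unshared stretches, 10 were members, against 22 of 37 genes with 50% to under 100% and 10 of 13 genes with V exons entirely unlike any other. All 22 annotated *Trbv* genes outside the pseudogenes had entirely unshared V exons, and 18 of them were members. By copy, 28 of 46 *Trav* genes without a letter, 10 of 34 d genes and 4 of 28 n genes were members. How reads that match several places were counted is not given in the sources used here, and its part in this pattern was not tested. The alpha counts therefore cover a part of the alpha V region, and the beta counts nearly all of its genes.

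**Figure D1:**
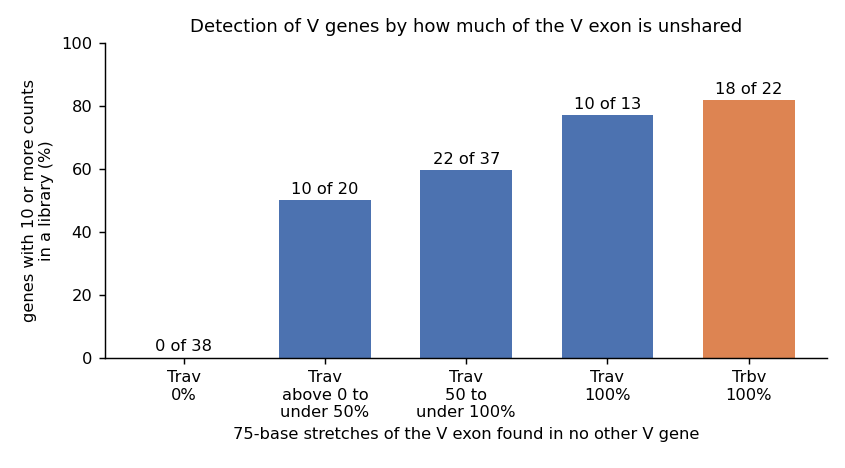
Share of annotated V genes with 10 or more counts in at least 1 library (y axis, percent) by the percentage of 75-base stretches of the V exon found in no other V gene (x axis), for alpha genes (blue) and beta genes (orange). The bars rise from 0 of 38 alpha genes with no unshared stretch to 10 of 13 with only unshared stretches, and 18 of 22 beta genes were detected.

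V genes of invariant T cells were looked up by name. *Trav11*, the alpha V gene of invariant natural killer T cells, and its copy *Trav11d* had 0 counts in all 6 libraries, and neither has a 75-base stretch of its own, so these counts carry no statement on those cells. *Trav1*, the V gene of mucosal-associated invariant T cells, has an unshared V exon. In the control libraries it had 16, 2 and 3 counts, and 9, 5 and 5 in the Ezh2 libraries. It was low in every library, was highest in GFP replicate 1, and did not pass the filter on low counts. The limit of 10 counts itself kept 2 genes at exactly 10 counts in their highest library, *Trav3-1* and *Trav7d-3*, and left out *Trav14-2* at 9 counts.

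TCR V genes were higher in sum in every Ezh2 library than in every GFP library. The members summed to 49.2, 53.4 and 47.3 CPM in GFP replicates 1 to 3, to 60.7 and 61.0 CPM in Ezh2 replicates 1 and 2, and to 86.3 CPM in Ezh2 replicate 3. The mean was 49.9 ± 3.10 CPM (SD, n = 3) in the control group and 60.9 ± 0.248 CPM (SD, n = 2) in Ezh2 replicates 1 and 2, a ratio of 1.22. The exact permutation test gave p = 0.2 (two-sided), the smallest value that 3 against 2 libraries allow. With all 6 libraries the ratio was 1.39 and the exact p = 0.1, again the smallest possible for 3 against 3. The sum includes 6 *Trav* members that reached 10 counts through Ezh2 replicate 3 alone. Over all V rows with at least 1 count it was 50.6, 54.8 and 48.5 CPM in the GFP libraries. The Ezh2 libraries had 62.8, 62.7 and 87.9 CPM.

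Of the difference of 10.9 CPM between the means on 5 libraries, 9.34 CPM lay in the beta chain. *Trbv* members summed to 31.3, 31.8 and 31.2 CPM in the GFP libraries, against 40.7 and 40.9 CPM in Ezh2 replicates 1 and 2, and 50.4 CPM in Ezh2 replicate 3. The 3 control values lay within 1 CPM of each other and below all Ezh2 values, and the ratio on 5 libraries was 1.30 (exact permutation p = 0.2, two-sided). *Trav* members summed to 14.9, 17.7 and 13.3 CPM in the GFP libraries and to 15.7 and 16.1 CPM in Ezh2 replicates 1 and 2, where the groups overlapped (ratio 1.04, exact permutation p = 0.8). Ezh2 replicate 3 reached 31.9 CPM for *Trav*, with the 6 members that reached 10 counts through it alone included. The difference between the chains was not tested.

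**Figure D2:**
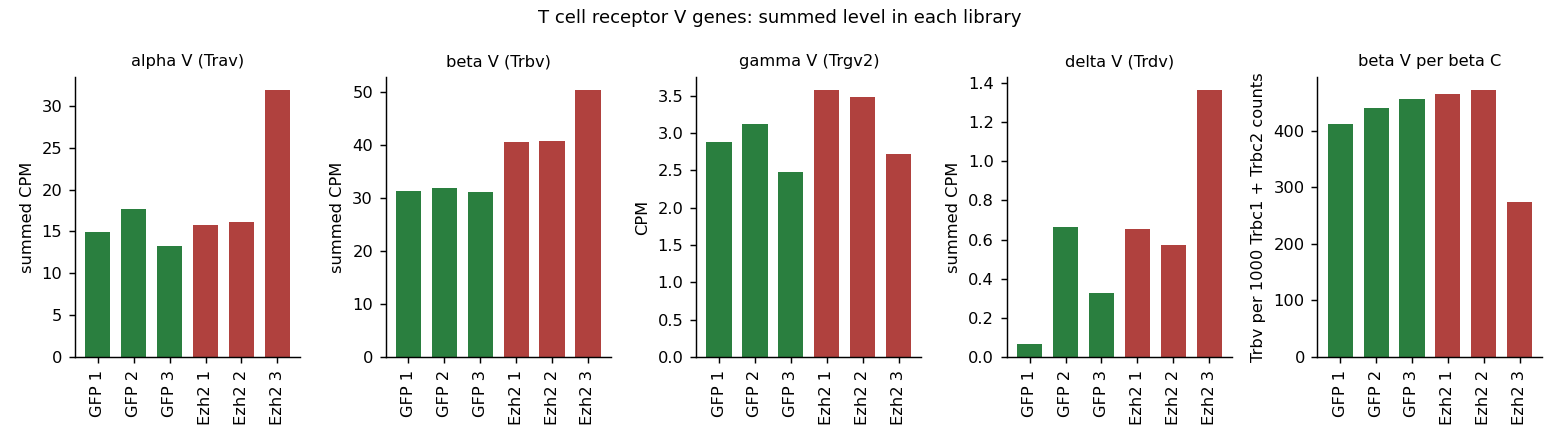
Summed CPM of the alpha, beta, gamma and delta V members and *Trbv* counts per 1000 counts of *Trbc1* and *Trbc2* (y axes, linear, from 0) in each of the 6 libraries (green, GFP; red, Ezh2); each bar is 1 library. The beta panel separates the groups, the alpha panel is set apart by Ezh2 replicate 3 at 31.9 CPM, and *Trbv* per beta constant count is lowest in that library, at 274.

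The alpha and beta constant genes, to which joined V segments are spliced, were higher in the same libraries. *Trac*, the alpha constant gene, reached 45.6, 48.6 and 45.1 CPM in the GFP libraries and 58.3, 57.9 and 106 CPM in the Ezh2 libraries. Its log2 fold change on 5 libraries was 0.33 (edgeR quasi-likelihood test, adjusted p = 5.76e-04), which is below the fold change of 1.5 asked for a call. *Trbc1* and *Trbc2*, the closely similar beta constant genes, summed to 76.1, 72.3 and 68.4 CPM in the GFP libraries and to 87.6, 86.6 and 184 CPM in the Ezh2 libraries. The gamma constant genes varied. *Tcrg-C2* was above the controls in all Ezh2 libraries, at 7.88, 8.53 and 7.32 CPM against 11.1, 10.02 and 15.0 CPM (log2 0.43, adjusted p = 0.0306 on 5 libraries, edgeR, not called). *Tcrg-C1* lay between 1.56 and 3.51 CPM in the controls and between 2.20 and 2.83 CPM in the Ezh2 libraries, and *Tcrg-C4* had 2.00, 1.71 and 1.82 CPM against 1.89, 1.46 and 3.89 CPM, so that both overlapped (log2 -0.03 and -0.13, adjusted p = 0.97 and 0.83). All V members together came to 404, 442 and 417 counts per 1000 counts of *Trac*, *Trbc1* and *Trbc2* in the GFP libraries. Ezh2 replicates 1 and 2 had 416 and 422, inside the control range, and Ezh2 replicate 3 had 298. Thus, relative to the constant genes, the summed V level did not separate the groups on 5 libraries.

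Each chain was also set against its own constant genes. There were 327, 365 and 295 *Trav* counts per 1000 *Trac* counts in the GFP libraries, against 270 and 278 in Ezh2 replicates 1 and 2 and 301 in Ezh2 replicate 3. *Trbv* counts per 1000 *Trbc1* and *Trbc2* counts were 412, 441 and 456 in the GFP libraries, against 465 and 472 in Ezh2 replicates 1 and 2 and 274 in Ezh2 replicate 3. The groups did not overlap on 5 libraries for either ratio (exact permutation p = 0.2 for each, the smallest possible), and overlapped on all 6 (p = 0.2 and p = 1).

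*Trbv1* was the most abundant V gene per kilobase of exon, at 13.4 CPM per kb on average over 6 libraries, followed by *Trbv16* at 9.43, *Trbv13-3* at 9.29 and *Trbv19* at 7.66 CPM per kb. The order depends on the group, since *Trbv19* averaged 5.27 CPM per kb in the GFP libraries and 10.7 in Ezh2 replicates 1 and 2, against 9.52 and 10.5 for *Trbv16* and 8.17 and 10.4 for *Trbv13-3*. *Trbv1* led in both, at 11.0 and 11.7 CPM per kb, and reached 147, 146 and 133 counts in the GFP libraries, 169 and 157 in Ezh2 replicates 1 and 2, and 358 in Ezh2 replicate 3. Except in Ezh2 replicate 3 it lay between 4.33 and 5.25 CPM, and its fold change did not pass the test (log2 0.10 ± 0.19 SE, adjusted p = 0.80, edgeR). *Trbv16* ranged from 2.75 to 4.39 CPM in the GFP libraries and *Trbv13-1* from 2.22 to 3.32 CPM, and both overlapped the Ezh2 libraries. *Trbv13-3*, from the same group of segments as *Trbv13-1*, ranged from 2.53 to 3.27 CPM in the GFP libraries and from 2.77 to 4.32 CPM in the Ezh2 libraries.

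The effective number of V genes (the inverse of the summed squared shares, which equals the number of genes if all were used equally) was 12.1, 12.1 and 12.4 for *Trbv* in the GFP libraries. It was 12.5 and 12.05 in Ezh2 replicates 1 and 2 (exact permutation p = 0.8) and 10.6 in Ezh2 replicate 3. The share of *Trbv* counts that 2 libraries had in common ran from 82.5% to 90.7% between GFP libraries, was 89.7% between Ezh2 replicates 1 and 2, and ran from 79.8% to 86.1% between these groups. Each pair of libraries differed by more than counting noise alone, with a chi-square per degree of freedom of at least 1.99 for *Trbv* counts, which does not tell separate animals from separate preparations.

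The beta gene with the most counts, not scaled by length, was *Trbv1* in all GFP libraries and in Ezh2 replicate 3, and *Trbv19* in Ezh2 replicates 1 and 2. In the comparison of groups on 5 libraries, 46 of the 64 members passed the filter on low counts and 3 were called, all higher with *Ezh2*. A call needed an adjusted p under 0.05 over all genes tested and a fold change above 1.5. The 3 calls are 6.52% of tested members, against 3.8% of 20241 genes tested. All 3 were *Trbv* genes, of 17 tested, and 0 of 27 tested *Trav* genes were called. An unadjusted p under 0.05 was seen for 5 *Trav* genes, or 18.5%, against 29.3% of all genes (edgeR). The same held for 5 of the 17 tested *Trbv* genes, which is near that background. Over all tested members it held for 10 of 46, or 21.7%. DESeq2 called 2 members, *Trbv19* and *Trbv29*, beside 631 of 16571 genes. It gave an adjusted p to 15 members, of which 1 was a *Trav* gene, so it adds little on that chain. The filter passed 10 members that were above its limit in fewer than 2 of the GFP libraries, so that the tested set is not free of the outcome. With all 6 libraries, 42 members were tested and 1 was called, or 2.38%, against 2.52% of 19732 genes. These shares are near the background.

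*Trbv19* had the smallest adjusted p of the members and rose in the Ezh2 group. The controls had 104, 82 and 91 counts of it (3.402, 2.59 and 2.96 CPM), against 177 and 230 counts in Ezh2 replicates 1 and 2 (5.50 and 6.57 CPM) and 180 counts in Ezh2 replicate 3 (5.004 CPM). All Ezh2 libraries were above all GFP libraries. The mean was 2.98 ± 0.406 CPM (SD, n = 3) in the control group and 6.03 ± 0.756 CPM (SD, n = 2) in Ezh2 replicates 1 and 2, with a log2 fold change of 1.03 ± 0.21 (SE, adjusted p = 5.30e-04, edgeR). It was the member called with all 6 libraries too (log2 0.97 ± 0.19 SE, adjusted p = 0.0232). The call was kept when any GFP library was left out of the 5 (adjusted p up to 0.00514, edgeR). Without Ezh2 replicate 1 or 2 from the 5, the log2 fold change was 1.16 and 0.88. The call was lost when any GFP library or Ezh2 replicate 1 or 2 was left out of the 6. The adjusted p then ran from 0.0552 (without Ezh2 replicate 1) to 0.138 (without GFP replicate 3). Calls over all genes fell in these fits too, from 498 on all 6 libraries to between 110 and 423. *Trbv19* made 10.9%, 8.13% and 9.49% of *Trbv* counts in the GFP libraries, 13.5% and 16.1% in Ezh2 replicates 1 and 2, and 9.93% in Ezh2 replicate 3. Its share thus lay above the control range in Ezh2 replicates 1 and 2, but inside it in Ezh2 replicate 3. The gene (ENSMUSG00000076475) lies at chr6:41178375-41179048 on the plus strand.

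*Trbv29* had 44, 35 and 42 counts in the GFP libraries and 80, 99 and 63 counts in the Ezh2 libraries. The groups did not overlap, and Ezh2 replicate 3 lay closest to the controls at 1.75 CPM. Its share of *Trbv* counts was 3.47% to 4.60% in the GFP libraries and 6.10% and 6.91% in Ezh2 replicates 1 and 2. In Ezh2 replicate 3 the share was 3.48%, inside the control range. Its log2 fold change was 1.04 ± 0.29 (SE, adjusted p = 0.0120, edgeR), and the call was lost without GFP replicate 2 (adjusted p = 0.05004), without Ezh2 replicate 2 (0.138) and with all 6 libraries (0.0894). *Trbv12-2* had 37, 29 and 49 counts in the GFP libraries and 75, 86 and 69 counts in the Ezh2 libraries, again with no overlap. Its share of *Trbv* counts was 2.88% to 5.11% in the GFP libraries and 5.72% and 6.01% in Ezh2 replicates 1 and 2. In Ezh2 replicate 3 the share was 3.81%, again inside the control range. Its log2 fold change was 0.96 ± 0.31 (SE, adjusted p = 0.0301, edgeR). Its call was lost without GFP replicate 1 (adjusted p = 0.0515), GFP replicate 2 (0.124), Ezh2 replicate 1 (0.0946) or Ezh2 replicate 2 (0.174), with DESeq2 (0.0719) and with all 6 libraries (0.0999). *Trbv12-1*, named after its values were seen, is the segment upstream of *Trbv12-2* with an unshared V exon of its own. It had 17, 14 and 10 counts in the GFP libraries and 35, 30 and 32 in the Ezh2 libraries and was not called (adjusted p = 0.108).

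**Figure D3:**
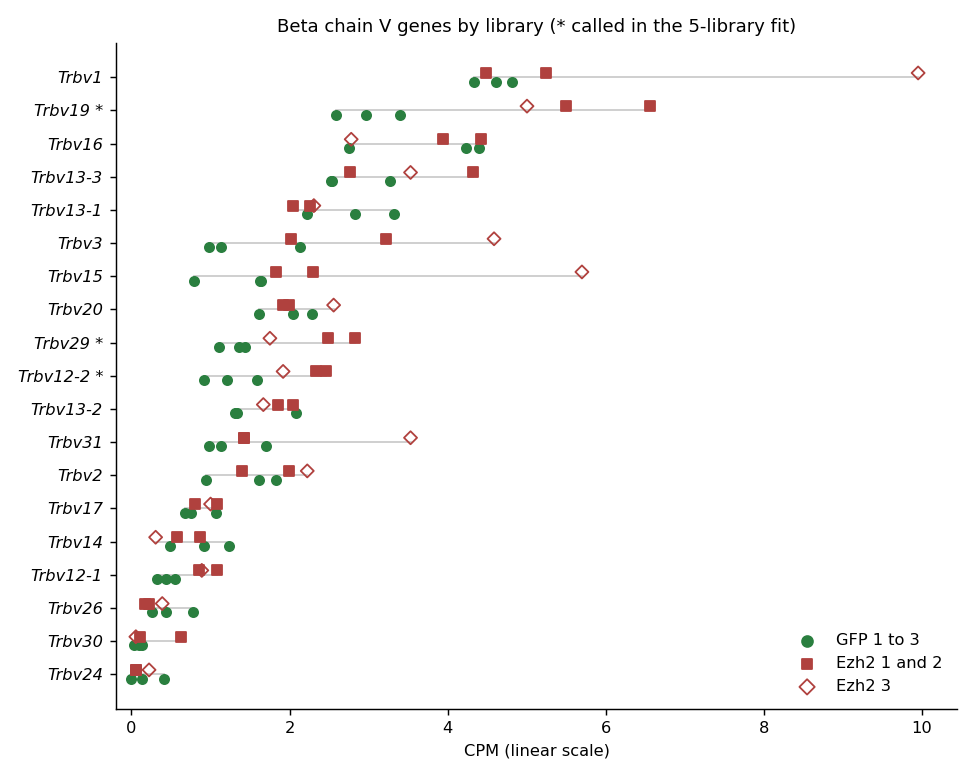
CPM of each of the 19 beta V members (x axis, linear) in GFP replicates 1 to 3 (green circles), Ezh2 replicates 1 and 2 (filled red squares) and Ezh2 replicate 3 (open red diamonds), in order of their mean over 6 libraries. The genes with an asterisk, *Trbv19*, *Trbv29* and *Trbv12-2*, are those called on 5 libraries, and *Trbv1* reaches farthest to the right, at 9.95 CPM in Ezh2 replicate 3.

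Tested *Trbv* members had a median log2 fold change of 0.23, with 13 above and 4 below 0, and tested *Trav* members a median of 0.09, with 15 above and 12 below. Over all tested members the median was 0.21, beside -0.01 over all genes. The RGC markers had a median of 0.23, with 2 of 6 tested at an adjusted p under 0.05, against 17.8% of all genes (edgeR). One of these was *Thy1*, the gene of the sort marker that mouse T cells also carry (log2 0.22, adjusted p = 0.00675, edgeR, not called). The other, *Nefl*, a neurofilament gene, had a log2 fold change of 0.56 (adjusted p = 0.00106, edgeR, not called). *Nefl* was called with all 6 libraries (adjusted p = 0.0306). *Pou4f1*, at 0.60 CPM or less, had an SE of 0.83. The precision differed between the chains, since the median SE of the log2 fold change was 0.31 for *Trbv* and 0.70 for *Trav*. The median *Trav* member had 19.5 counts in its highest library, and which size of change could be found at such counts was not tested. The CPM ranges of the groups did not overlap for 12 of 46 tested members on 5 libraries, or 26.1%, against 44.9% of all tested genes. With all 6 libraries the figures were 9 of 42 members, or 21.4%, against 34.2%. Both shares of members are below the background, and the part of their low counts in this was not tested.

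**Figure D4:**
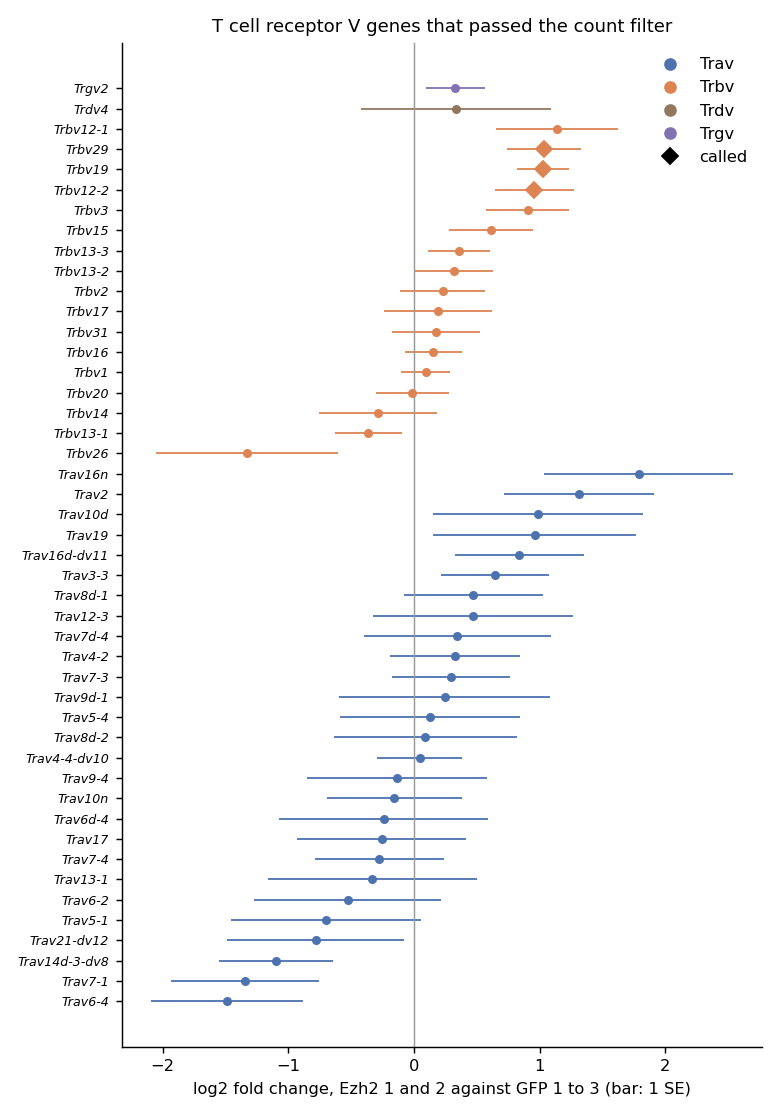
Log2 fold change of Ezh2 replicates 1 and 2 against GFP replicates 1 to 3 (x axis, bars of 1 SE) for the 46 members that passed the filter, by chain; diamonds mark the 3 calls. The alpha genes spread to both sides of 0 with wide bars, and the called beta genes lie at 0.96 to 1.04.

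*Trav4-4-dv10*, a V segment that can join alpha or delta chains, was the most abundant alpha member per kilobase of exon, at 5.29 CPM per kb on average over 6 libraries. It had 43, 86 and 37 counts in the GFP libraries and 66, 56 and 89 counts in the Ezh2 libraries, with no separation of the groups (log2 0.04 ± 0.34 SE, adjusted p = 0.95, edgeR). *Trav3-3* had 17, 33 and 17 counts in the GFP libraries and 39, 36 and 29 in the Ezh2 libraries (adjusted p = 0.34). All 3 controls had 34 counts of *Trav14d-3-dv8*, against 19, 15 and 24 in the Ezh2 libraries. All of its Ezh2 values were lower, with a log2 difference of -1.10 ± 0.45 (SE) that did not pass the test (adjusted p = 0.0932). *Trav14d-3-dv8* shares stretches with 4 other *Trav14* copies.

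The effective number of *Trav* genes was 22.3, 18.9 and 23.4 in the GFP libraries and 20.3 and 24.6 in Ezh2 replicates 1 and 2 (exact permutation p = 0.8, two-sided), with overlap. In Ezh2 replicate 3 it was 8.42. The share of *Trav* counts in common was 68.6% to 76.3% between GFP libraries, 71.5% between Ezh2 replicates 1 and 2, and 66.6% to 75.4% between these groups. Between Ezh2 replicate 3 and the other 5 libraries it was 36.4% to 40.8%. The number of members with 10 or more counts was 36, 43 and 35 in the GFP libraries and 39, 42 and 47 in the Ezh2 libraries (exact permutation p = 0.6 on 5 libraries). Once every library was scaled to the smallest V total, the expected number was 35.0 to 38.8 in the GFP libraries, 33.1 in both Ezh2 replicates 1 and 2, and 28.2 in Ezh2 replicate 3, so that the larger raw numbers went with larger V totals.

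A few alpha genes held most of the *Trav* counts of Ezh2 replicate 3. *Trav6-3* had 4, 13 and 8 counts in the GFP libraries, 3 and 5 in Ezh2 replicates 1 and 2, and 284 in Ezh2 replicate 3, or 19.2 times the CPM of the next highest library. This library held 89.6% of its counts (95% exact binomial interval 85.7% to 92.7%). *Trav7n-4*, the copy printed above, had 220 counts in Ezh2 replicate 3 (6.12 CPM) and 0 in each of the other 5, which is at least 62.3-fold higher when 3 counts per library are taken as the limit. Its near copies did not stand high there, since *Trav7-4* had 15 counts and *Trav7d-4* had 0 counts in Ezh2 replicate 3, against 14 to 30 and 3 to 13 in the other libraries. *Trav7-5* has an unshared V exon. Its counts were 101 in Ezh2 replicate 3, 1 and 5 in the other Ezh2 libraries, and 0 in all 3 controls. These 3 genes made 24.8%, 19.2% and 8.81% of the *Trav* counts of that library, and 52.8% in sum. In the other 5 libraries the 3 leading genes made between 22.2% and 29.0%.

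*Trav6-3* differs from *Trav6d-3* at 1 of 292 V exon bases, and *Trav6d-3* was at 0 in every library, so counts of this pair are uncertain as to the copy. The 4 n copies among the members held 26.2% of *Trav* counts in Ezh2 replicate 3 and 3.73% to 7.62% in the other 5 libraries. Most of this was 1 gene, since *Trav7n-4* held 220 of their 300 counts there and *Trav14n-3* held 46. Both reached 10 counts through this library alone. *Trav10n* and *Trav16n* had 11 and 23 counts there, against 15 to 22 and 2 to 22 in the other libraries. Of the 64 members, 6 reached 10 counts through Ezh2 replicate 3 alone, all of them *Trav* genes, and 58 would remain with this library left out. The 3 leading genes passed the filter on low counts neither on 5 nor on all 6 libraries and have no test between the groups.

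**Figure D5:**
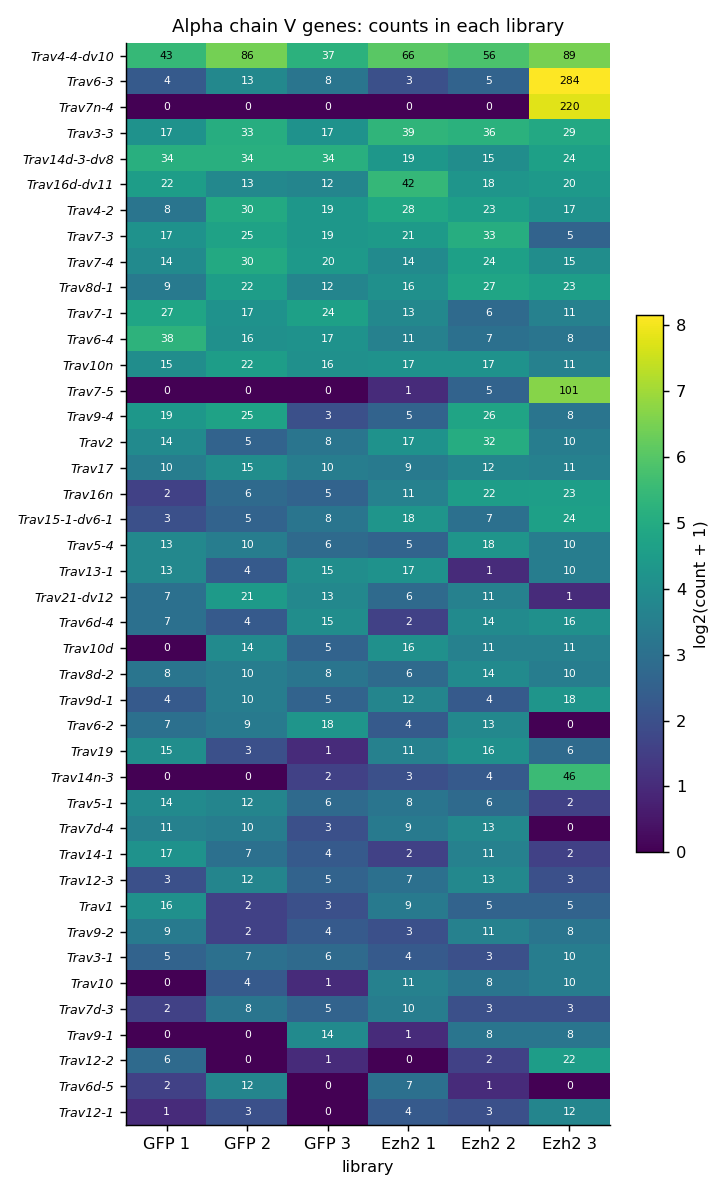
Counts of the 42 alpha V members (rows, by mean CPM over 6 libraries) in each library (columns), printed in the cells and coloured by log2(count + 1). Ezh2 replicate 3 is bright for *Trav6-3* (284), *Trav7n-4* (220) and *Trav7-5* (101), which are at 0 to 13 counts in the other libraries.

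For the beta chain, the share of counts that Ezh2 replicate 3 had in common with the others was larger than for the alpha chain. Its share of *Trbv* counts in common with the other libraries was 76.0% to 82.5%. *Trbv1* made 19.8% of its *Trbv* counts (95% exact binomial interval 17.9% to 21.7%), against 11.0% to 15.4% in the other 5 libraries. *Trbv15*, named after its values were seen, had 205 counts there and 24 to 74 elsewhere, and made 11.3% of *Trbv* counts against 2.51% to 5.64%. Regulatory T cell genes stood high in the same library, with 6 genes (*Foxp3*, *Il2ra*, *Ikzf2*, *Ctla4*, *Tnfrsf18* and *Tnfrsf4*) summing to 1531 CPM against 211 to 260 CPM in the other 5. *Foxp3*, their defining factor, reached 92.4 CPM against 9.02 to 11.5 CPM. The list was chosen with this library's values known, and its part in the V usage was not tested. B and plasma cell genes summed to 289 CPM there against 464 to 515 CPM in the other libraries, with *Jchain* at 269 CPM.

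The gamma and delta chains had 1 and 2 members. *Trgv2*, on the minus strand of chromosome 13, had 88, 99 and 76 counts in the GFP libraries and 115, 122 and 98 in the Ezh2 libraries. Ezh2 replicates 1 and 2 lay above the controls while Ezh2 replicate 3 lay among them, and the log2 fold change of 0.33 ± 0.23 (SE) did not pass the test (adjusted p = 0.38, edgeR). Other gamma V genes carry older symbols that begin with Tcrg-V in this annotation and are not members; 6 such rows had 2 to 96 counts in sum over all libraries. *Trdv4* had 2, 18 and 8 counts in the GFP libraries and 18, 7 and 29 in the Ezh2 libraries, with a log2 fold change of 0.33 ± 0.76 (SE, adjusted p = 0.82). *Trdv1* had 0, 3 and 2 counts in the GFP libraries and 3, 13 and 20 in the Ezh2 libraries, and was not tested. The delta constant gene *Trdc* lay between 1.90 and 2.58 CPM in the 5 libraries and at 7.48 CPM in Ezh2 replicate 3.

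Of the wider receptor pathway, 38 genes of 4 lists were counted, and 37 were tested on 5 libraries. Of these, 2 were called, both higher, or 5.41% against 3.8% of all genes. They were *Cd8a* and *Cd8b1*, which encode the coreceptor of CD8 T cells. *Cd8a* reached 17.0, 18.7 and 17.0 CPM in the GFP libraries and 44.5, 46.2 and 37.9 CPM in the Ezh2 libraries, with a log2 fold change of 1.38 (adjusted p = 2.76e-13, edgeR). *Cd8b1* had a log2 fold change of 1.31 (adjusted p = 3.93e-11), and both calls were kept with all 6 libraries. Without the fold threshold, 21 of the 37 genes passed on adjusted p, all higher, against 17.8% of all genes, whereas 3 did so with all 6 libraries, against 5.78%.

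Over all genes, 17.8% had an adjusted p under 0.05 on 5 libraries and 5.78% on all 6 (edgeR). The receptor constant and CD3 genes, which form and anchor the receptor, had 8 of 11 genes at an adjusted p under 0.05 on 5 libraries and 1 on all 6, none called, with a median log2 fold change of 0.33 on 5 libraries. For coreceptors and costimulation genes this held for 6 of 9 and for 2 with all 6 libraries, with a median of 0.30. For proximal signalling genes such as *Lck* and *Zap70* it held for 7 of 9 and for 0, with a median of 0.26. On all 6 libraries 5 of these 9 had an unadjusted p under 0.05, against 24.5% of all genes (edgeR). The V(D)J recombination genes cut and join V segments in developing T and B cells. On 5 libraries, 0 of 8 tested had an unadjusted p under 0.05, against 29.3% of all genes (edgeR). None passed at an adjusted p under 0.05, and the median was 0.02. *Rag1* was at 1.46 to 3.09 CPM and *Rag2* at 0.143 CPM or less, near the limit that a count of 0 allows. Of 6 B and plasma cell genes, 1 passed at that level, *Cd79b* (log2 0.45, adjusted p = 0.0358, not called), with a median of 0.23. They summed to 464 to 515 CPM in the GFP libraries and 289 to 507 CPM in the Ezh2 libraries, most of it *Jchain*, at 441 to 490 and 269 to 479 CPM. *Thy1*, the gene of the sort marker, was higher on 5 libraries by a log2 fold change of 0.22 (adjusted p = 0.00675, not called), and the part of the gate in the V level was not tested.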

How the data were processed

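RNA of sorted cells was made into stranded total RNA libraries, per the labels. The authors deposited 1 table of raw counts for Ensembl genes in 6 libraries. The submitters' processing notes name STAR 2.7.0d and GRCm38, while the counting program, the annotation release, the use of strand and the treatment of reads that match several places are not given in the sources used here. All 6 columns were matched to samples, and 0 were left without one. Of 55573 identifiers, 55480 matched GENCODE M21, which supplied symbols, coordinates and transcript sequences. No exon of a member overlapped another gene.

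After filterByExpr and TMM scaling, edgeR 4.0.16 (R 4.3.3) gave quasi-likelihood tests with robust estimates on GFP replicates 1 to 3 and Ezh2 replicates 1 and 2, with p values adjusted by the Benjamini-Hochberg method over all genes tested. SEs were taken from the F statistic. Values with 1 number per library were compared with exact permutation tests. The alternatives tried were the fit on all 6 libraries, leaving out single libraries, a block for replicate number, DESeq2 (version 1.42.0), other scaling and filters, other sets of V rows and other measures of usage. Robust estimation was chosen for the main fit after fits with and without it had been seen, because its number of called genes matched an earlier account of these data, and the fit without it is given as an added alternative. Named members were the 5 *Trav*, 5 *Trbv*, 2 *Trdv* and 1 *Trgv* genes with the highest mean CPM, called members, members with at least 100 counts in 1 library and over 80% of their counts there, and *Trav1*, *Trav11* and *Trav11d*. No member was at 0 throughout 1 group with 10 or more counts in every library of the other. The members and lists were chosen with earlier results of these data known. On simulated counts of the 5 libraries (20046 genes), 200 of 200 changed genes were recovered with 2 false calls. The changed genes were drawn from genes with higher counts than most alpha members and given larger changes than the called members. The same spread was set for all genes. This recovery therefore does not carry over to V genes with low counts or smaller changes.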

Additional observations from a re-analysis of the deposited data

Results flagged for a closer look

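In Ezh2 replicate 3, which the comparison on 5 libraries leaves out, 24 of the 64 members (37.5%) were above all GFP libraries in CPM, against 32.1% of 22071 genes with 10 or more counts in a library. Of the 64 members, 6 reached 10 counts through this library alone, and all 6 lay above every GFP library in it. The share of members is thus not free of how the members were chosen. The 3 members with at least 100 counts in this library and over 80% of their counts there are given by name. *Trav6-3* had 284 counts in Ezh2 replicate 3, against 4 to 13 in the GFP libraries. *Trav7n-4* had 220 counts there and 0 in each GFP library. *Trav7-5* had 101 counts there and 0 in each GFP library. With 3 libraries per group, single libraries far from the rest of their group were not tested.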

How the results depend on the processing

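The number of V genes called on 5 libraries was 3, and 1 with all 6 libraries, with and without robust estimates. Without them, 754 of 20241 and 476 of 19732 genes were called. The number was 4 with no filter on low counts (63 members tested), beside 813 of 32161 genes. It was also 4 with a filter at 50 counts (14 tested), beside 688 of 15400 genes. The cause was not tested. The number of V genes called was 3, 1 and 3 without GFP replicates 1 to 3 from the 5, beside 794, 788 and 676 of all genes. It was 0 each time a GFP library or Ezh2 replicate 1 or 2 was left out of the 6. Calls over all genes fell there too, from 498 to 110, 187 and 126 without GFP replicates 1 to 3. They fell to 416 and 423 without Ezh2 replicates 1 and 2. Leaving out Ezh2 replicate 1 or 2 from the 5 leaves 1 Ezh2 library, which is then assumed to vary like the GFP libraries. As a replicate block, the number called was 3 on 5 libraries and 0 on all 6, beside 722 of 20241 and 396 of 19732 genes. Same-numbered libraries did not deviate together from their group means (correlations of -0.0045, -0.0199 and -0.0099). These means include Ezh2 replicate 3, which stood apart, and each group has 3 libraries. The check therefore cannot decide whether same-numbered libraries were prepared together. For the pathway lists, 2 genes were called under every alternative except adjusted p alone, with 21, and the block gave 2.

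The difference in summed V level (10.9 CPM on 5 libraries) stayed positive in CPM under each alternative and was -1.80 counts per 1000 constant gene counts. The difference in the effective number of *Trav* genes was 0.92 on 5 libraries and -3.77 with all 6, and ranged from -7.18 to 3.05 when 1 library was left out. For *Trbv* these values were 0.10 and -0.45, ranging from -0.85 to 0.34. The difference in the number of members with 10 or more counts was 2.5, and -3.39 once scaled to the smallest V total. For the value differences no exact p was below 0.1, which these designs cannot pass. Single called beta genes kept their direction under all 21 alternatives, and *Trbv19* was called in 15, *Trbv29* in 11 and *Trbv12-2* in 8 of them. Counts of 10 or more in all libraries were reached by 6 of 42 alpha, 16 of 19 beta and 0 of 2 delta members, which limits single genes.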
